A study of Mus musculus with 12 samples.

Results

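The genes Gfap, Nes, Vim, Cryab and Hspb1 were followed through RiboTag libraries of the mouse small intestinal muscularis, the muscle coat that holds the enteric nervous system. They are 5 of the 12975 genes in the count table: 3 intermediate filament genes and 2 small heat shock genes. The genes were chosen by name as glial filament genes and their small heat shock partners, with their measured levels in all 4 groups in view, so their own levels and differences are given as a description and no p is printed for them. Every mouse carried PLPCreERT2 and Rpl22HA (B6J.129(Cg)-Rpl22tm1.1Psam/SjJ). Every mouse, naive ones included, was injected with tamoxifen at 10 to 12 weeks of age (2 intraperitoneal injections of 100 µl at 15 mg/ml in Miglyol 812) and was killed 3 to 4 weeks after the first injection. Tamoxifen activates the Cre recombinase in the cells that express it, where the ribosomal protein Rpl22 then carries an HA tag. This Cre line is active in enteric glial cells (EGCs) and also in myelinating Schwann cells, so HA libraries can hold mRNA of both. Homogenate of each muscularis was split and precipitated with anti-HA (HA) or with a mouse IgG1 control antibody (IgG). Naive mice (T0, mice 1, 2 and 4) and mice killed 3 h after intestinal manipulation (T3, mice 1, 3 and 4) gave 4 groups of 3 libraries. Manipulation needs anaesthesia and a laparotomy, which the naive mice did not have, so the effects of these and of manipulation cannot be told apart. The numbers 1 and 4 at T0 and T3 stand for different mice.

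Intermediate filaments are rope-like polymers of the cytoplasm and nucleus. Glial fibrillary acidic protein (Gfap), vimentin (Vim) and nestin (Nes) build the cytoplasmic network of glia, and nestin, which polymerizes poorly alone, joins filaments of vimentin. A rise of these proteins is the classic sign of reactive gliosis in the brain, and Gfap also marks part of the EGCs in the gut. Alpha-B crystallin (Cryab) and Hsp27, the product of Hspb1, are small heat shock proteins. They bind unfolding proteins without using ATP and associate with intermediate filaments, and both occur in smooth muscle as well as in reactive glia.

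Total counts, each a unique molecular identifier, ranged from 1789710 to 2870591 in HA T0, from 1221788 to 1495439 in HA T3, from 388214 to 1289833 in IgG T0 and from 88136 to 248522 in IgG T3. Levels are given as CPM, counts scaled to a common library total. Each molecule was counted once, near the 3′ end of its gene, so no correction for gene length applies, although genes may still differ in how well they are captured. The level that 3 counts represent was 1.05 to 2.46 CPM in HA libraries and 2.33 to 34.0 CPM in IgG libraries. The summed level of 11 EGC markers (such as Sox10, S100b and Gpr37l1) was 3828 to 4765 CPM in HA T0, 3099 to 3768 CPM in HA T3 and 226 to 363 CPM in IgG T0. In IgG T3 it was 1407 CPM in mouse 1, 1054 CPM in mouse 3 and 193 CPM in mouse 4. EGC markers thus took a larger share of the first 2 of these control libraries than of any naive control. A share does not give the amount of glial mRNA, and these 2 libraries had the smallest totals (88136 and 92022 counts). Cdh19 was at 0 counts in all IgG libraries. The summed level of 10 smooth muscle markers was 13655 to 26193 CPM in HA and 43370 to 69431 CPM in IgG libraries, so muscle mRNA remained in the HA libraries. For 4 markers of interstitial cells of Cajal the sum was 2741 to 3485 CPM in HA T0 and 254 to 356 CPM in IgG T0. At 3 h it was 1216 to 1588 CPM in HA and 189 to 772 CPM in IgG. A level above IgG is thus not particular to glial genes, and the cause was not tested. In such bulk libraries, fewer cells of a type and less RNA per cell cannot be told apart.

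The 5 genes lie on 5 chromosomes of GRCm38 (mm10) in the GENCODE M21 annotation. Gfap spans chr11:102887336-102900912 on the minus strand, and its counting window overlaps an antisense gene, Gm26668, on the plus strand. Whether strand was used in counting is not given in the sources used here, so reads of Gm26668 cannot be told from those of Gfap. The other 4 genes lie on the plus strand, Nes at chr3:87971078-87980451, Vim at chr2:13573927-13582826, Cryab at chr9:50751325-50756636 and Hspb1 at chr5:135887919-135889563. Cryab shares 1030 bases with Hspb2, a second small heat shock gene that runs in the opposite direction, but no part of that gene lies in the window in which Cryab was counted.

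Promoters of 4 of the 5 genes are in the RefSeq table for GRCm38.p6 (250 bases before to 50 after the transcript start). The promoters of Gfap and Hspb1 are shown because, of the 4, only these held a match to a searched motif other than a TATA box. They were thus picked on the outcome of the search, and that of Gfap does not stand for those of Nes and Vim. Gfap lies at chr11:102897151-102897450 on the minus strand and Hspb1 at chr5:135887669-135887968 on the plus strand. Both are printed 5′ to 3′ on the gene's own strand. In Gfap the capitals mark a STAT site (TTCNNNGAA), the motif that STAT3 binds in cytokine signalling. In Hspb1 they mark 2 head-to-head heat shock elements (GAANNTTC), the inverted repeat that heat shock factor 1 (Hsf1) binds.
Gfap: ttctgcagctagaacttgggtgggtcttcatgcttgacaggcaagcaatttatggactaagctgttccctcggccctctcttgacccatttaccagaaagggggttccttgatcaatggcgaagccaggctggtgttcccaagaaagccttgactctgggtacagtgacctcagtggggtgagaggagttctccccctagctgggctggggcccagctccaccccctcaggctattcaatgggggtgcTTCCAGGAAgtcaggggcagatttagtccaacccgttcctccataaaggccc
Hspb1: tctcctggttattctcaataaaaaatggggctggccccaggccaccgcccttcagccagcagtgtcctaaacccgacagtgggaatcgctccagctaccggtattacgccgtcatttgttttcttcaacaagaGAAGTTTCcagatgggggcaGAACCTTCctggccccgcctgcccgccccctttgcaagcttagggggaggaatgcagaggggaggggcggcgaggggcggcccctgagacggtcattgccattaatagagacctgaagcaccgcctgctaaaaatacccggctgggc
The Gfap motif began 2 bases before the start, and the Hspb1 motifs began 117 and 97 bases before it. Among 32851 promoters of the same length, TTCNNNGAA was found in 8.30% and GAANNTTC in 7.86%, and both motifs read the same on both strands. The tail-to-tail heat shock element TTCNNGAA (8.52% of promoters), the AP-1 site TGANTCA (7.81%) and the cyclic AMP response element TGACGTCA (1.79%), which also read the same on both strands, were in none of the 4 promoters. A TATA box (TATAAA, searched on both strands, 13.6% of promoters) was found in Vim, 32 bases before the start, and none of the 6 motifs was in the window of Nes. No match of 1 motif overlapped a match of another. These matches describe letters in a window and not binding.

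Gfap, the glial filament protein, ranked 1702 among all genes by mean level in HA T0 and 57 in HA T3. In naive mice, HA libraries held 129.8, 95.5 and 129.6 CPM (mice 1, 2 and 4; 338, 171 and 372 counts), and IgG libraries held 2.58, 6.86 and 6.98 CPM from 1, 4 and 9 counts. At 3 h, HA libraries held 1515, 1672 and 1959.7 CPM (mice 1, 3 and 4; 1851, 2500 and 2517 counts) and IgG libraries held 113, 141 and 101 CPM from 10, 13 and 25 counts. All HA libraries at 3 h lay above all others, and the IgG libraries at 3 h overlapped the naive HA libraries. The mean was 118.3 ± 19.7 CPM in HA T0 and 1715 ± 226 CPM in HA T3 (SD, n = 3), a log2 fold change of 4.12 (SE 0.20). In IgG the means were 5.47 ± 2.51 and 118.4 ± 20.8 CPM, a log2 fold change of 4.18 (SE 0.46). The IgG T3 library with the fewest EGC markers, that of mouse 4, held 101 CPM of Gfap, and the IgG fold change was 4.21 without mouse 1 and 4.07 without mouse 3 at T3. The IgG level of Gfap was 7.49%, 8.45% and 5.13% of the HA level in injured mice 1, 3 and 4. The part of glial mRNA in the IgG level of Gfap was not tested.

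Nes, a filament protein of neural progenitors and of reactive glia, differed with time in HA about as much as Gfap. Naive HA libraries held 43.0, 48.1 and 27.9 CPM and naive IgG libraries 10.3, 5.14 and 12.4 CPM, the latter from 4, 3 and 16 counts. At 3 h, HA libraries held 619, 578 and 699.9 CPM and IgG libraries 79.4, 65.2 and 60.4 CPM, the latter from 7, 6 and 15 counts. The 4 groups did not overlap, in the order HA T3, IgG T3, HA T0 and IgG T0. The mean in HA went from 39.6 ± 10.5 to 632 ± 62.2 CPM, a log2 fold change of 4.27 (SE 0.23). In IgG it went from 9.28 ± 3.74 to 68.3 ± 9.91 CPM, a log2 fold change of 2.71 (SE 0.50), and this difference no longer passed the threshold (adjusted p under 0.05 in the fit over all genes, the rule for every call here) without mouse 4 at T3 (2.75, with 2 libraries left in that group).

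Vim, the filament protein of glia and of mesenchymal cells, was abundant in HA before injury and differed little with time. Naive HA libraries held 2103, 1694 and 3711 CPM, and HA libraries at 3 h held 2605, 3471 and 2815 CPM. The naive library of mouse 4 was above all 3 libraries from injured mice, so the groups overlapped. The means were 2502 ± 1066 and 2963 ± 451 CPM, and the log2 fold change of 0.52 (SE 0.23) did not pass the threshold. Without the naive HA library of mouse 4 it was 0.85 and passed. That library also had the highest summed level of 6 myelinating Schwann cell markers among the naive HA libraries (1068 CPM, against 756 and 586 CPM in mice 1 and 2). Over all groups this sum was 586 to 1068 CPM in HA T0, 827 to 1080 in HA T3, 127 to 143 in IgG T0 and 145 to 340 in IgG T3, with Ncmap at 0 counts in IgG T0. Its part in the Vim level was not tested. In IgG, Vim was at 577, 545 and 775 CPM in naive mice and at 1112, 989 and 358 CPM in injured ones, a log2 fold change of 0.29 with overlapping groups. The 2 IgG T3 libraries with high Vim were the 2 with high EGC markers.

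**Figure D1:**
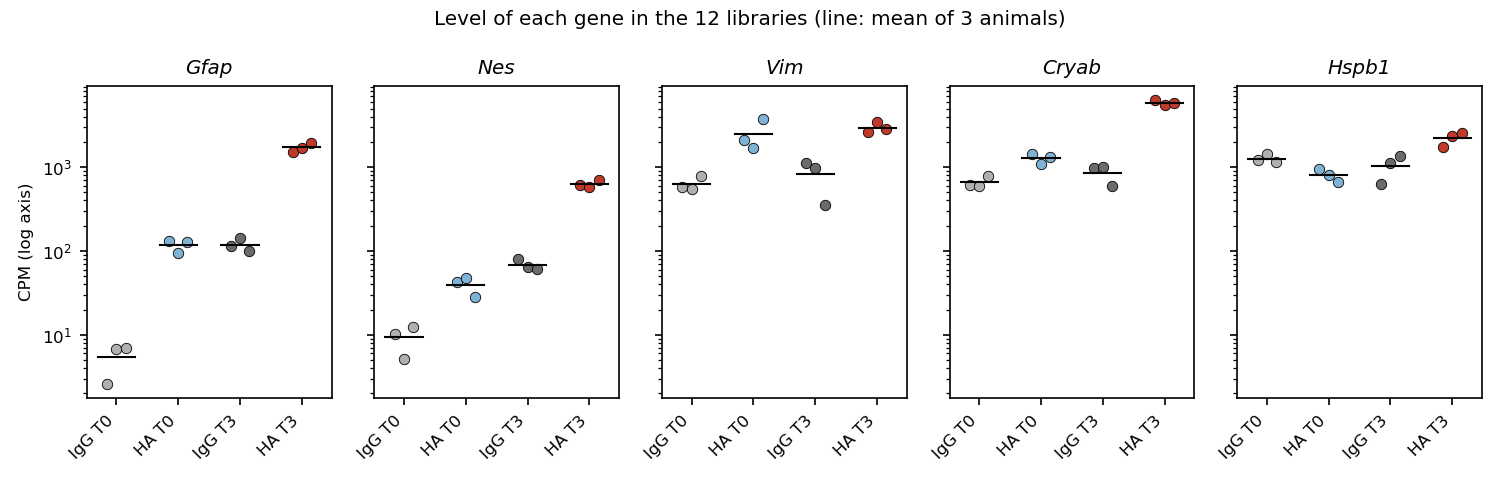
Level of each gene in CPM (log axis) in the 12 libraries, by antibody and time, with 1 point per mouse and a line at the mean of 3. Gfap and Nes in HA at 3 h lay above every other library (1515 to 1959.7 and 578 to 699.9 CPM), Vim overlapped between times in HA, and naive Hspb1 was lower in HA (659 to 962 CPM) than in IgG (1136 to 1438 CPM).

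Together the 3 filament genes changed composition. Of the summed counts of Gfap, Nes and Vim, Gfap made up 5.70%, 5.20% and 3.35% in naive HA libraries and 32.0%, 29.2% and 35.8% in those of injured mice. The exact (Clopper-Pearson) 95% counting intervals ran from 3.02% to 6.32% over the naive libraries and from 28.3% to 36.9% over the injured ones, and cover counting error only. The mean share of Gfap was 4.75% ± 1.24 at T0 and 32.3% ± 3.30 at T3 (SD, n = 3), that of Nes 1.74% ± 0.956 and 12.0% ± 1.63, and that of Vim 93.5% ± 2.10 and 55.7% ± 4.67. In IgG libraries the Gfap share was 0.849% ± 0.398 at T0 and 13.3% ± 5.49 at T3, from 229 to 1025 and 110 to 129 filament counts per library. The groups did not overlap between times for either antibody, and Vim remained the largest share in all 12 libraries.

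**Figure D2:**
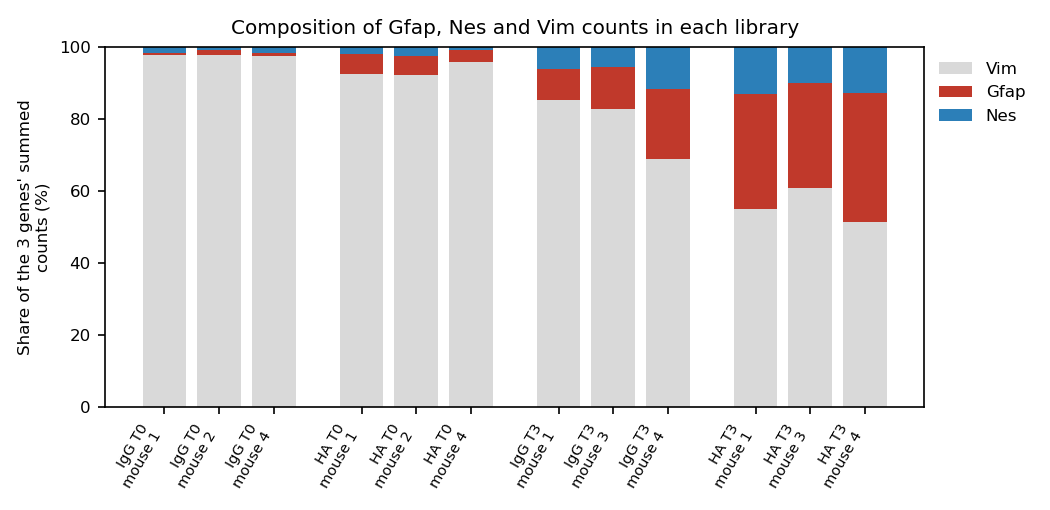
Share (%) of Vim, Gfap and Nes in the summed counts of the 3 genes, with 1 bar per library. In HA the Gfap share was 3.35% to 5.70% at T0 and 29.2% to 35.8% at T3, and in IgG it was at most 1.23% at T0 and 8.70% to 19.4% at T3.

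Cryab, the chaperone of desmin and Gfap filaments, was the fourth highest gene of the table by mean level in HA T3 and ranked 91 in HA T0. Naive HA libraries held 1416, 1101 and 1326 CPM, and HA libraries at 3 h held 6284, 5481 and 5771 CPM. Naive IgG libraries held 618, 603 and 794 CPM, and IgG libraries at 3 h held 976, 1011 and 599.5 CPM. The HA groups did not overlap with each other or with IgG, and the 2 IgG groups overlapped. The mean in HA was 1281 ± 163 CPM at T0 and 5845 ± 407 CPM at T3, a log2 fold change of 2.45 (SE 0.18). In IgG it was 672 ± 106 and 862 ± 228 CPM, a log2 fold change of 0.30 (SE 0.29) that did not pass the threshold.

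Hspb1, whose protein caps actin filaments and binds unfolding proteins, stood apart in naive mice by being lower in HA than in IgG. Naive HA libraries held 962, 816 and 659 CPM and naive IgG libraries 1200.4, 1438 and 1136 CPM, without overlap. At 3 h, HA libraries held 1744, 2369 and 2545 CPM, above all other libraries, and IgG libraries held 624, 1108 and 1360.0 CPM, which overlapped both naive groups. The mean in HA was 812 ± 152 CPM at T0 and 2219 ± 421 CPM at T3, a log2 fold change of 1.71 (SE 0.20). In IgG it was 1258 ± 159 and 1031 ± 374 CPM, a log2 fold change of -0.28 (SE 0.33) that did not pass the threshold.

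The ratio of Cryab to Hspb1 counts within a library was 1.47, 1.35 and 2.01 in naive HA libraries and 3.60, 2.31 and 2.27 in those of injured mice. Its mean was 1.61 ± 0.353 and 2.73 ± 0.758 (SD, n = 3), and the groups did not overlap. All 5 genes together took 0.475% ± 0.105 of the counts of an HA library at T0 and 1.34% ± 0.0538 at T3. In IgG libraries they took 0.258% ± 0.0159 and 0.290% ± 0.0418.

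Between times in HA, 4 of the 5 genes were called higher and none lower, beside 18.7% higher and 15.1% lower of the 9441 genes tested. In IgG, Gfap and Nes were called higher and none lower, beside 4.43% and 1.03% of 5219 genes. Groups without overlap in CPM were common over all genes tested. Their share was 50.8% between times in HA (15.6% higher and 35.2% lower) and 26% between times in IgG. Between HA and IgG it was 44.8% at T0 and 35.8% at T3. The 5 genes were selected on these same values, and nothing is read from the counts or from the lack of overlap.

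HA libraries were compared with the IgG library of the same mouse. For Gfap the ratio of HA to IgG CPM was 50.4, 13.9 and 18.6 in naive mice 1, 2 and 4 and 13.4, 11.8 and 19.5 in injured mice 1, 3 and 4. The first of these rests on 1 count in IgG, with an exact 95% counting interval of 8.98 to 1996. For Nes the ratio was 4.17, 9.34 and 2.25 in naive mice, with an interval of 3.09 to 46.2 for mouse 2 (3 counts in IgG), and 7.79, 8.86 and 11.6 in injured mice. For Vim it was 3.64, 3.11 and 4.79 in naive and 2.34, 3.51 and 7.86 in injured mice. The filament genes were thus above IgG in every mouse at both times, and for each of the 3 the ratios at T0 and T3 overlapped.

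The small heat shock genes had ratios that did not overlap between times. The share of all genes with ratios apart between times was not computed, and the 5 genes were chosen on these values. Nothing is thus read from the overlap or lack of overlap of these ratios. For Cryab the ratio was 2.29, 1.82 and 1.67 in naive and 6.44, 5.42 and 9.63 in injured mice. For Hspb1 it was 0.802, 0.567 and 0.580 in naive mice, where all 3 counting intervals lay below 1, and 2.79, 2.14 and 1.87 in injured mice, where all 3 lay above 1. Beside these, Sox10, the transcription factor that defines EGCs, had ratios of 22.6, 16.4 and 21.8 in naive mice and 2.91, 4.45 and 17.2 in injured mice. S100b, a calcium-binding protein of EGCs, had ratios of 15.4, 18.1 and 21.8 in naive and 6.50, 9.37 and 43.9 in injured mice. For both markers the ratio of injured mice 1 and 3 was below that of all naive mice, while Cryab and Hspb1 had higher ratios in those same mice. The marker ratios of injured mice 1 and 3 rest on 6 and 7 counts of Sox10 and 13 and 7 of S100b in IgG. Their counting intervals were 1.32 to 8.01 and 2.14 to 11.1 for Sox10, and 3.79 to 12.3 and 4.53 to 23.4 for S100b. All but the first overlapped a naive interval of the same marker, the lowest beginning at 9.52 for Sox10 and 9.47 for S100b. The cause was not tested.

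**Figure D3:**
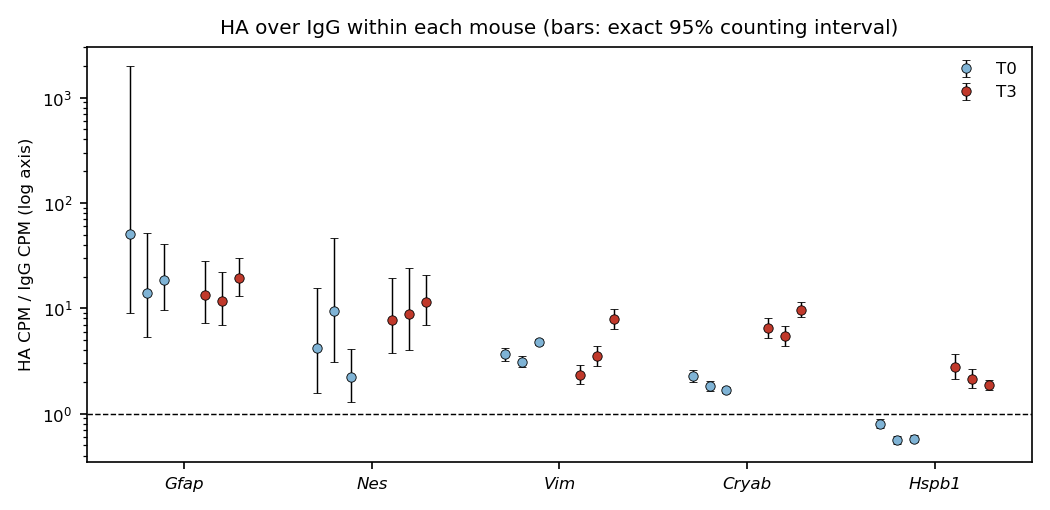
HA CPM divided by IgG CPM within each mouse (log axis), with exact 95% counting intervals, for naive (T0) and injured (T3) mice. Hspb1 crossed the line of equal levels, from 0.567 to 0.802 at T0 to 1.87 to 2.79 at T3, Cryab went from 1.67 to 2.29 to 5.42 to 9.63, and the ratios of Gfap, Nes and Vim overlapped between times.

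In the fit over all genes, the log2 fold change of HA over IgG in naive mice was 4.24 (SE 0.33) for Gfap, 1.97 (SE 0.39) for Nes, 1.94 (SE 0.27) for Vim, 0.90 (SE 0.20) for Cryab and -0.65 (SE 0.21) for Hspb1. At 3 h it was 3.98 (SE 0.31) for Gfap, 3.33 (SE 0.32) for Nes, 2.00 (SE 0.34) for Vim, 2.88 (SE 0.28) for Cryab and 1.18 (SE 0.30) for Hspb1. In naive mice 4 were called higher and 1 lower, beside 16.0% and 14.4% of 9823 genes. At 3 h all 5 were called higher and none lower, beside 11.8% and 10.2% of 7200 genes. The genes were chosen on these values too, and nothing is read from the counts. The naive difference of Hspb1 no longer passed without HA T0 mouse 2 (-0.65) or mouse 4 (-0.48), or without IgG T0 mouse 1 (-0.65) or mouse 2 (-0.53). Its difference at 3 h no longer passed without HA T3 mouse 3 (1.07) or mouse 4 (1.05).

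The change with time in HA minus that in IgG (the antibody-by-time interaction) was 2.25 (SE 0.33) on the log2 scale for Cryab, 2.07 (SE 0.39) for Hspb1, 1.62 (SE 0.50) for Nes and 0.34 for Vim. For Gfap it was 0.0050, and -0.17 (SE 0.53) with DESeq2. The DESeq2 error is given because the SE derived here from edgeR's F statistic is not usable for a difference so near 0. The median of all genes was 0.18 in this contrast. Cryab and Hspb1 were called higher and none lower, beside 0.301% higher (31 of 10314 genes) and 0.0291% lower, and nothing is read from this since the genes were chosen on these values. With HA and IgG of the same mouse kept as pairs, 158 genes were called in place of 34, and the values were 2.26 for Cryab and 2.17 for Hspb1. Hspb1 no longer passed under total-count scaling (1.72) or without HA T0 mouse 2 (2.00) or 4 (1.90), HA T3 mouse 3 (1.97) or 4 (1.89) or IgG T3 mouse 3 (2.01).

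The other intermediate filament genes (18, all in the table) were mostly those of muscle, neurons, epithelium and the nuclear lamina. This list and those below were chosen with earlier results of these data known. Their counts and adjusted p are thus a description, and nothing is read from a count beside the share over all genes. In naive mice 0 of the 14 tested were higher in HA than in IgG and 11 were lower (edgeR's quasi-likelihood test with Benjamini-Hochberg adjustment over all genes, as for all adjusted p below), with a median log2 fold change of -1.41, beside a median of -0.02 for all genes. At an unadjusted p under 0.05, 1 was higher (Lmnb2, 1.20), and DESeq2 called 0 higher and 12 lower. Of all genes tested, edgeR called 16.0% higher and 14.4% lower. Desmin (Des), the filament of muscle, was lower by 1.42 on the log2 scale (adjusted p = 0.00113), from 16264 ± 3618 CPM in IgG to 6156 ± 1791 CPM in HA. Peripherin (Prph), a filament of enteric neurons, had a log2 fold change of -1.31 (adjusted p = 0.00107), and the neurofilament genes Nefl and Nefm had -2.66 (adjusted p = 6.01e-04) and -2.78 (adjusted p = 0.00213). Nefl and Nefm rest on 28 and 17 counts in all HA T0 libraries together and 57 and 36 in IgG T0. They entered this fit through their IgG levels, which favours a lower HA level. Synemin (Synm), which joins desmin and vimentin filaments, had -1.20 (adjusted p = 0.00133), and the epithelial keratin Krt19 had -2.02 (adjusted p = 1.87e-04). Of the other keratins, Krt7 (-2.25) and Krt8 (-1.80) passed, and Krt20 (-1.39, adjusted p = 0.238) did not. Krt18 (-1.39) and the neuronal filament genes Ina (-1.30) and Nefh (-1.71) passed, but not without IgG T0 mouse 4 (-1.04, -1.15 and -1.26), nor did Nefh without HA T0 mouse 1 (-1.38). At 3 h, 0 of 7 tested were higher (0 at an unadjusted p under 0.05, and 0 with DESeq2) and 6 lower, with Des at -1.96 (adjusted p = 7.25e-05) and Synm at -1.68 (adjusted p = 2.05e-04). The shares over all genes at 3 h were 11.8% higher and 10.2% lower. Sync, Bfsp1 and Bfsp2 had at most 38 counts in any group of 3 libraries.

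Lmna, which encodes the nuclear lamins A and C, had the smallest adjusted p of the other filament genes in both comparisons of T3 with T0. Its mean in HA went from 529.9 ± 61.4 to 2192 ± 49.5 CPM (log2 fold change 2.31, adjusted p = 3.25e-09), and in IgG from 559 ± 104 to 1826 ± 377 CPM (1.69, adjusted p = 0.00315). It differed between HA and IgG at neither time by the test (log2 fold change -0.10, adjusted p = 0.736, and 0.36, adjusted p = 0.347). In HA, 3 of 13 tested filament genes rose and 5 fell, beside 18.7% and 15.1% of all genes. Krt19 fell by 1.74 (adjusted p = 4.90e-05), and Krt7 had 20.7 ± 1.65 CPM at T0 and 1.21 ± 1.07 CPM at T3, where it had 5 counts in all 3 HA libraries together. Prph rose by 0.85 (adjusted p = 0.00543), but did not pass without HA T3 mouse 4 (0.54, adjusted p = 0.0726). The other 4 calls (Krt8, Krt18 and Lmnb2 lower, Lmnb1 higher) were lost under 5, 5, 6 and 12 of 13 alternative settings. Des, at -0.02, did not pass. In IgG, 1 of 9 rose (Lmna) and 0 fell (4 at an unadjusted p under 0.05, and 0 with DESeq2), beside 4.43% and 1.03% of all genes. In the interaction 0 of 15 passed (3 at an unadjusted p under 0.05, and 0 with DESeq2).

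The other small heat shock genes (7 listed, 5 in the table) lay on the side of IgG. In naive mice 0 of 4 tested were higher in HA (0 at an unadjusted p under 0.05, and 0 with DESeq2) and 4 were lower (3 with DESeq2). Of these, Hspb6 (log2 fold change -1.20, adjusted p = 6.46e-04), a small heat shock protein of muscle, and Hspb8 (-1.06, adjusted p = 0.00117), which acts with Bag3 in selective autophagy, kept the call under all 13 alternatives run. The calls of Hspb2 (-0.80) and Hspb7 (-0.59) were lost under 6 and 10 of them. At 3 h, 0 of 4 were higher (0 and 0 by the same checks) and 3 lower, among them Hspb6 (-1.64, adjusted p = 4.98e-04) and Hspb7 (-1.32, adjusted p = 0.00444). With time in HA, Hspb8 rose by 0.80 (adjusted p = 0.00289) from 179 ± 34.6 to 259 ± 34.9 CPM, and Hspb6 fell by 1.30 (adjusted p = 1.27e-04) from 413 ± 52.9 to 139 ± 45.3 CPM. Hspb7 (0.42, adjusted p = 0.115) and Hspb2 (-0.42, adjusted p = 0.231) did not pass. In IgG 0 of 4 passed (3 at an unadjusted p under 0.05, and 1 with DESeq2), and in the interaction 0 of 4 (0 and 0). Over all genes, 16.0% were higher and 14.4% lower in HA than in IgG in naive mice, and 11.8% and 10.2% at 3 h. With time, 18.7% rose and 15.1% fell in HA, and 4.43% and 1.03% in IgG. In the interaction the shares were 0.301% and 0.0291%. Hspb3 was at 0 counts in all 6 IgG libraries, which allows up to 2.33 to 34.0 CPM, and at 7.15 ± 2.56 CPM in HA T0.

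**Figure D4:**
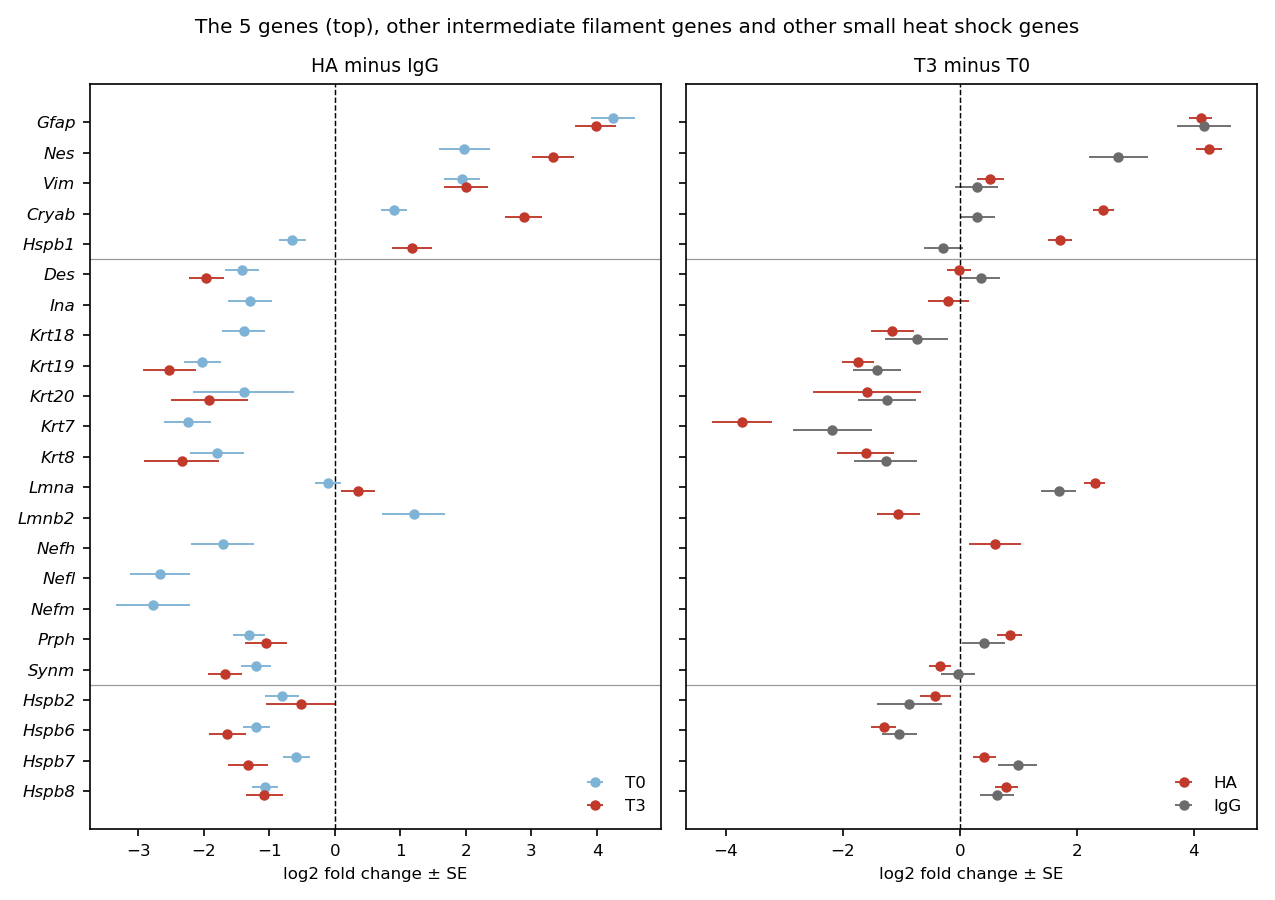
Log2 fold change with its SE for the 5 genes (top), the other intermediate filament genes (middle) and the other small heat shock genes (bottom), as HA minus IgG at T0 and T3 (left) and as T3 minus T0 in HA and IgG (right). Gfap, Nes, Vim and Cryab lay right of 0 on the left at both times and Hspb1 at T3 only, while Des, Synm, Prph and Hspb6 lay left of 0. Genes tested between HA and IgG at T0 are shown, and a missing point means too few counts for that fit.

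Genes that work with small heat shock proteins (14 listed, 13 in the table) included heat shock factors, large chaperones and the kinases that phosphorylate Hsp27. In HA 8 of 12 tested rose with injury and 0 fell (8 and 0 with DESeq2, and 0 lower at an unadjusted p under 0.05), beside 18.7% and 15.1% of all genes, with a median log2 fold change of 1.32 (-0.02 for all genes). Bag3, which links small heat shock proteins to Hsp70, rose by 2.91 (adjusted p = 9.20e-11), from 83.3 ± 4.90 to 522 ± 10.5 CPM. The Hsp70 gene Hspa1a rose by 1.96 (adjusted p = 6.67e-06), the Hsp90 gene Hsp90aa1 by 1.80 (adjusted p = 0.00479) and Mapkapk3, a kinase of Hsp27, by 1.79 (adjusted p = 1.29e-04). Hsf1 itself had -0.35 (adjusted p = 0.182). In IgG 3 of 11 rose and 0 fell (3 and 0 by both checks), Bag3 among them (1.47, adjusted p = 0.00500), but without IgG T0 mouse 2 it had 1.42 (adjusted p = 0.0510). The calls of Hspa1a (1.66, adjusted p = 0.0427) and Mapkapk2 (1.35, adjusted p = 0.0107) in IgG were lost under 5 and 3 of 13 alternatives, all of which left out 1 IgG library. The share over all genes was 4.43%. Of the 12 tested, 0 passed as higher in HA at T0 (0 at an unadjusted p under 0.05, and 0 with DESeq2) or at T3 (2 and 0). In naive mice 2 of 12 were lower in HA (14.4% of all genes), Hsp90aa1 (-2.54, adjusted p = 6.22e-04) and Bag3 (-0.81, adjusted p = 0.00595). At 3 h 1 was lower (10.2% of all genes), Hspa1b (-1.23, adjusted p = 0.0382), a call lost under 10 of 13 alternatives. The interaction of Bag3 was 1.52 (adjusted p = 0.0213), a call that 12 of 18 alternatives did not keep. The ratio of HA to IgG CPM of Bag3 was 0.591, 0.533 and 0.615 in naive and 1.09, 1.58 and 1.29 in injured mice. Its counting interval in injured mouse 1 (0.803 to 1.53) included 1, and Bag3 did not pass between HA and IgG at 3 h (0.45, adjusted p = 0.231).

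Other genes that mark reactive astrocytes in the brain (10 listed, 9 in the table) rose in HA in 9 of 9 cases, beside 18.7% of all genes. The list was chosen with earlier results of these data known, so nothing is read from this count. Timp1, an inhibitor of matrix proteases, rose by 4.51 (adjusted p = 1.04e-11), the chemokine Cxcl10 by 4.45 (adjusted p = 1.71e-04), lipocalin 2 (Lcn2) by 3.33 (adjusted p = 9.62e-06) and Osmr, the receptor of oncostatin M, by 3.01 (adjusted p = 2.52e-07). In IgG 4 of 4 tested rose, beside 4.43% of all genes, and Cxcl10 (4.81, adjusted p = 3.78e-05) kept the call under all 13 alternatives. Osmr (3.11, adjusted p = 0.00119) lost it without IgG T3 mouse 4 (2.49, adjusted p = 0.0706). Cd44 (1.85, adjusted p = 0.0428) and S1pr3 (1.39, adjusted p = 0.0411) lost it under 5 and 9 alternatives, with any IgG T3 library left out among them. Cxcl10, Osmr and Cd44 had at most 8.57, 15.4 and 38.6 CPM in IgG T0 and at least 113, 56.7 and 64.4 CPM in IgG T3. They entered the IgG fit through their T3 levels, which favours a rise, so nothing is read from the 4 of 4. In the interaction 0 of 9 passed (2 at an unadjusted p under 0.05, and 0 with DESeq2). Of the regulators of gliosis (11, all in the table), 6 of 10 tested rose in HA and 0 fell (0 lower by both checks), beside 18.7% and 15.1% of all genes. Socs3, a feedback inhibitor of STAT3, rose by 4.78 (adjusted p = 7.13e-13), Stat3 by 2.79 (adjusted p = 1.67e-10), Sox2 by 1.83 (adjusted p = 2.85e-06) and Notch1 by 1.53 (adjusted p = 1.78e-06). In IgG 3 of 7 rose (4.43% of all genes), Socs3 at 5.08 (adjusted p = 5.54e-06), Stat3 at 2.28 (adjusted p = 0.00105) and Notch1 at 2.56 (adjusted p = 0.0228), the last lost under 4 of 13 alternatives, each without 1 IgG library. Socs3 and Notch1, at most 29.1 and 24.0 CPM in IgG T0, also entered the IgG fit through their T3 levels, and nothing is read from the 3 of 7. Of the EGC markers, 1 of 10 tested rose in HA (S100b, 0.70, adjusted p = 0.00610, but 0.43 and adjusted p = 0.0567 with total-count scaling) and 1 fell (Gpr37l1, -0.87, adjusted p = 0.00174), with a median of 0.03. The shares over all genes were 18.7% and 15.1%.

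Over the 12 libraries, the genes whose log2 CPM was most like that of each of the 5 genes were sought among 10314 genes, by Pearson's r. The 12 points share mice, antibody and depth, so r is a description. For Gfap they were Fam129b (0.992), Sdc4 (0.985) and Tmbim1 (0.981), and for Nes Vasn (0.979), Gdf15 (0.976) and Oaf (0.975). For Cryab they were Klk9 (0.981), Dennd2a (0.970) and Fam132b (0.968), and for Hspb1 Eif5a (0.942), Id3 (0.936) and S100a10 (0.897). For Vim they were the myelin genes Mbp (0.976) and Cnp (0.970), with Rab31 (0.974). Among the 5 genes themselves, r was 0.961 between Gfap and Nes, 0.915 between Nes and Cryab and 0.706 between Cryab and Hspb1, and it was lowest between Vim and Hspb1 (0.304).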

How the data were processed

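RNA bound to HA-tagged or IgG-precipitated ribosomes was made into 12 libraries by bulk MARS-seq, which tags each mRNA molecule at its 3′ end. Per the labels and the study's methods, the authors used cutadapt, STAR 2.4.2a and HTSeq on mm10 and deposited unnormalized counts per gene, each a unique molecular identifier in a window from 1000 bases before to 100 bases after a gene's 3′ end. The labels name a minimum of 5 reads per gene, but 189 genes reach it in no library. Up to 8 samples were pooled for library preparation, and which ones is not given in the sources used here. The authors' DESeq2 1.26.0 results were not used here.

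The whole table was fitted with edgeR 4.0.16 (filterByExpr, TMM, quasi-likelihood F test, two-sided, Benjamini-Hochberg adjusted p threshold 0.05) in R 4.3.3, each comparison on its own groups and the interaction on all 12 libraries. The fits were tested on simulated counts. Alternatives were DESeq2 1.42.0, other scalings and filters, 1 fit of all libraries, replicate blocks and leaving out each library. CPM, shares and ratios came from the raw counts, with exact 95% intervals from scipy 1.17.1. A floor of 3 counts was used. Depth ranged from 88136 to 2870591 counts, and it limits IgG T3 most.

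HA and IgG libraries with 1 number come from the same mouse. Their deviations from the group means correlated at 0.268, 0.269 and 0.273 (T0 mice 1, 2 and 4) and at 0.162, 0.153 and 0.0887 (T3 mice 1, 3 and 4). The main fits did not use this pairing. With the mouse as a block, HA against IgG called 3807 genes in place of 2980 at T0 and 1608 in place of 1578 at T3. Nothing in the labels ties samples to separate litters or days, and p-values cover the spread between these mice only.

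The members and gene lists were chosen with earlier results of these data known, so list counts and the adjusted p of list genes are given as a description. Named were the 5 genes, every gene of the lists of other intermediate filament and other small heat shock genes, up to 4 genes with the largest absolute log2 fold change among those past the threshold in each other list and comparison described, and for each of the 5 genes the 3 with the highest Pearson's r (log2 CPM, prior count 2). Hsf1, Gm26668 and the marker genes that describe libraries fall outside this rule and were added as background. Single values of some marker genes are not reported here.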

Additional observations from a re-analysis of the deposited data

Results flagged for a closer look

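By the antibody-by-time interaction of edgeR's quasi-likelihood test, 4 of the genes examined were called, beside 0.33% of all 10314 genes. For Cryab the change in HA minus that in IgG was 2.25 on the log2 scale, with HA T3 above HA T0 in all libraries. For Hspb1 it was 2.07, with the same order in HA, and 6 of 18 alternatives did not keep the call. Both genes were chosen on these values, so no p is given and nothing is read from their calls. Bag3, which was lower in HA than in IgG in naive mice, had 1.52 (adjusted p = 0.0213), but 12 of 18 alternatives did not keep the call. Kit, the receptor kinase that marks interstitial cells of Cajal, had -2.06 (adjusted p = 0.0358), and 8 of 18 alternatives did not keep the call. Kit fell in HA (log2 fold change -1.11, adjusted p = 9.08e-05), and in IgG it had 1.09 (adjusted p = 0.168).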

How the results depend on the processing

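Of 350 values of the 5 genes under alternative settings, 320 kept their direction and their side of the threshold, 15 fell below it, 1 passed it and 14 changed sign. Gfap, Nes and Cryab in HA over time kept both under every alternative run, as did Gfap in IgG. Hspb1 in HA against IgG at T0 had -0.56 with no filter on low counts and -0.63 with all 12 libraries in 1 fit, both below the threshold. IgG T3 against IgG T0 called 285 genes, but 519 with no filter and 705 in 1 fit of all libraries. The interaction called 34 genes, 20 with RLE size factors, 8 with total counts as scaling, 83 with DESeq2 and 158 with the mouse as a replicate block. Gfap in the interaction changed sign with RLE (-0.16), total counts (-0.36) and DESeq2 (-0.17), Vim changed sign with total counts (-0.083), and Hspb1 had 1.72 with total counts and fell below the threshold. With the replicate block, Vim in IgG T3 against IgG T0 was -0.13, a sign change. Between times, blocked libraries share only a number (correlations of 0.157 and 0.0111 in HA and 0.169 and 0.0116 in IgG for numbers 1 and 4), and it changed no other call of the 5 genes. Total-count scaling moved the median of all genes from -0.02 to -0.29 in HA T3 against HA T0 and from 0.18 to -0.18 in the interaction, so that values there are best read against it.

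Leaving out each library in turn gave ranges of -0.81 to -0.48 for Hspb1 in HA against IgG at T0 and of 1.01 to 1.63 at T3, of 0.31 to 0.85 for Vim in HA over time, of -0.0084 to 0.61 for Vim and 2.41 to 3.10 for Nes in IgG over time. In the interaction they were -0.31 to 0.15 for Gfap, -0.064 to 0.70 for Vim and 1.78 to 2.39 for Hspb1. The count of genes called ranged from 849 to 1977 in HA T3 against IgG T3, from 162 to 334 in IgG T3 against IgG T0 and from 5 to 95 in the interaction. The lowest counts came without HA T3 mouse 4, IgG T0 mouse 2 and HA T3 mouse 4, and the highest of the interaction without IgG T3 mouse 4. Where a group was left with 2 libraries its spread was pooled with that of the other group. The cause of these differences was not tested.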

Other observations

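Genes that tie intermediate filaments to other structures (7 listed, all in the table) were compared as well. In naive mice 4 of 5 tested were lower in HA (14.4% of all genes) and 0 higher (0 at an unadjusted p under 0.05, and 0 with DESeq2), among them plectin (Plec), which links filaments to actin and microtubules (log2 fold change -1.40, adjusted p = 0.00323), the actin-microtubule linker Macf1 (-1.47, adjusted p = 6.99e-04) and envoplakin (Evpl, -1.64, adjusted p = 0.00153). At 3 h, Plec had -1.84 (adjusted p = 1.94e-04) and Macf1 -1.54 (adjusted p = 5.20e-04). Dst, a linker of filaments to microtubules, had -0.77 at T0 and -0.79 at T3, calls that 4 and 8 of 13 alternatives did not keep, and Evpl at T3 had -1.62, which 7 of 10 did not keep. With time in HA, Plec rose by 0.89 (adjusted p = 0.00152), and Macf1 (0.05, adjusted p = 0.864) and Dst (0.47, adjusted p = 0.0670) did not pass.

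Summed marker levels of other cells moved with time as well. The 5 mesothelial markers had 141 to 181 CPM in HA T0, 14.0 to 18.8 in HA T3, 386 to 778 in IgG T0 and 86.9 to 96.6 in IgG T3, and 4 of 4 tested fell in both HA and IgG. In HA T3 the highest of these genes was Msln (at most 8.18 CPM), so they entered the HA fit through their T0 levels. In IgG this held for Upk3b, Lrrn4 and Upk1b (at most 24.1, 22.7 and 21.7 CPM at T3). That favours a fall, so nothing is read from the 4 of 4, and Wt1 was not tested. In IgG, Upk3b (-3.04, adjusted p = 0.00142) kept the call under all 13 alternatives, Lrrn4 lost it under 4, Msln under 2 and Upk1b under 2 of 11, each with 1 IgG library left out. The 6 fibroblast markers had 854 to 1055 CPM in HA T0 and 217 to 427 in HA T3, with 4 of 6 lower. The 8 macrophage markers had 422 to 742 CPM in HA T0 and 196 to 336 in HA T3, with 3 of 5 lower. The 4 markers of interstitial cells of Cajal had 2741 to 3485 CPM in HA T0 and 1216 to 1588 in HA T3, with 3 of 4 lower, against 254 to 356 CPM in IgG T0. The 8 neuronal markers had 851 to 926 CPM in HA T0 and 891 to 1474 in HA T3, with 3 of 8 higher. The 6 endothelial markers never passed 48.3 CPM in sum, the 6 pericyte markers had 639.9 to 1174 CPM in HA libraries, and the 5 epithelial markers had 22.9 to 158 CPM there. Beside these counts, 15.1% of all genes tested fell and 18.7% rose in HA, and 1.03% fell in IgG. The part of these markers in the levels of the 5 genes was not tested.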
